A study of Mus musculus and Homo sapiens with 12 samples.

Results

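The genes described here are 10 goblet cell and mucus genes of the mouse, Muc2, Muc4, Muc13, Tff3, Clca1, Fcgbp, Zg16, Agr2, Spdef and Atoh1. They were chosen by name for their known place in mucus and goblet cells, out of 49943 genes in the RefSeq table, of which 21887 are protein-coding. For each gene, the DNA from 10 kb before to 10 kb after it was taken as its window, and the regions listed for 4 histone marks within that window were collected. The study asked where histone marks derived from short-chain fatty acids lie in the genome and what they regulate; butyrate, the acid behind the butyryl marks, is made from fiber by gut bacteria. CUT&Tag was run on large intestine of mice for butyryl-lysine at H3K18 and H4K12 (H3K18bu and H4K12bu) and for acetyl-lysine at the same residues (H3K18ac and H4K12ac), with 2 replicates per mark and 8 libraries in all. In CUT&Tag an antibody brings a transposase to nucleosomes with the mark, and the enzyme cuts and tags the DNA beside them. Each list gives regions where tagged DNA piles up above local background within that library. A region is called shared where regions of both replicates of a mark overlap.

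All animals were male CETP-ApoB-100 transgenic mice, and the design text gives tissue of 2 mice per condition without naming the animal behind each library. Their ages are not given in the sources used here. By the labels, the 4 butyryl libraries came from mice on a high fat, high sucrose diet with 5% arabinoxylan, a fermentable plant fiber. The 4 acetyl libraries carry the label of the high fat, high sucrose diet alone. The study's methods differ, since they describe a low fat control group and a high fat, high sucrose group that later received arabinoxylan, and name no group kept on the high fat diet alone. By the labels, the kind of mark and the diet cannot be told apart in any comparison of butyryl with acetyl libraries, and the diet of the acetyl libraries is itself uncertain. Nuclei came from pieces of large intestine, labelled as epithelial colon, so that goblet cells were 1 cell type among others. In such bulk tissue, fewer goblet cells and less of a mark per cell cannot be told apart.

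Goblet cells are the secretory cells of the gut lining that make mucus. In the colon their main product is Muc2, a gel-forming mucin that polymerises into the layer that keeps bacteria away from the epithelium, and proteins such as Fcgbp, Clca1, Zg16 and Tff3 are secreted with it. Atoh1 directs gut progenitors to the secretory fate and Spdef drives goblet cell maturation. Acetylation of H3K18 and H4K12 is found at active promoters and enhancers, and butyrylation of the same lysines is a related acyl mark.

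Promoter sequences show where the marks lay at gene starts. RefSeq promoters of GRCm38.p6, from 250 bases before to 50 bases after a start, were given for 7 of the 10 genes. The Atoh1 promoter (chr6:64728875-64729174, plus strand) was the 1 of these promoters with a butyryl region in both replicates of a mark, and its 60 capitals are the bases that lay in the H3K18bu regions of both replicates. The Fcgbp promoter (chr7:28070986-28071285, plus strand) has in capitals the 64 bases in the H4K12ac regions of both replicates. The second promoter of Muc13 (chr16:33794239-33794538, plus strand) has in capitals the 73 bases in the H3K18ac regions of both replicates. The Muc2 promoter (chr7:141690090-141690389, plus strand) held no region of any of the 8 libraries, and its capitals are matches to the motifs described in the next paragraph.
Atoh1: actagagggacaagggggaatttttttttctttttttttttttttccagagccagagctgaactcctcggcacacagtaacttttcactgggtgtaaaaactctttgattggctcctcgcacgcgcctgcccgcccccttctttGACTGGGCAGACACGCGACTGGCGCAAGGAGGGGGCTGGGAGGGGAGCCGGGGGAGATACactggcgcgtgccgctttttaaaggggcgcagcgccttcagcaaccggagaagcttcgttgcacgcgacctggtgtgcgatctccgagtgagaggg
Fcgbp: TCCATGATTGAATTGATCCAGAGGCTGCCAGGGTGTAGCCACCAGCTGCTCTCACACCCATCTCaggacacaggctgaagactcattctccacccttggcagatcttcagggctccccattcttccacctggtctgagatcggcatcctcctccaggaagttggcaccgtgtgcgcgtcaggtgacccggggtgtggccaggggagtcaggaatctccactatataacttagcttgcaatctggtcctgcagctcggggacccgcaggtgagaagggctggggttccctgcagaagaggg
Muc13: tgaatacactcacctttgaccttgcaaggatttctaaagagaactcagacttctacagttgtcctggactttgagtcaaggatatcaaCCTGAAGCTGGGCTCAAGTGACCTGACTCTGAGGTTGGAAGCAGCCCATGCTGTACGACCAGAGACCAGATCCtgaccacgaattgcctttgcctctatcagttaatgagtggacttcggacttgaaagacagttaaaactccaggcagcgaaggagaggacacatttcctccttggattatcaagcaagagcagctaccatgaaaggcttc
Muc2: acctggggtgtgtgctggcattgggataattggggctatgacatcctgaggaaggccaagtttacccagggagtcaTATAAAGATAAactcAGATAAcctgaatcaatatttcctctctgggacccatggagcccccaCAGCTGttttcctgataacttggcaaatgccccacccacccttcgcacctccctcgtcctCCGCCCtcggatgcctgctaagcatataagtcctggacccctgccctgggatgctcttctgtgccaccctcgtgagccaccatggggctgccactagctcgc

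The Atoh1 promoter held 20 CG pairs, more than 73.5% of all promoters in the table, against 7 in Fcgbp, 4 in the second promoter of Muc13 and 6 in Muc2. All promoters were searched on both strands for 5 motifs. The TATA box letters TATAAA were in 13.6% of all promoters, the GC box letters GGGCGG in 35.7%, the E-box CAGCTG in 16.3%, the forkhead letters TGTTTAC in 3.65% and the GATA letters AGATAA in 11.2%. The Muc2 promoter held the TATA letters overlapping a match to the GATA letters, a second match to the GATA letters, the E-box and, on the other strand, the GC box. The GC box was also in Atoh1, the E-box in Fcgbp, and the TATA and GATA letters in Muc4. Neither promoter of Muc13, nor those of Agr2 and Spdef, held any of the 5 motifs. The promoters of Muc4 and Agr2 also held no region of any library. The Spdef promoter held a region of H4K12bu replicate 2 alone, over 176 bases.

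The lists differed in depth, and every count at the genes has to be read against this. The butyryl lists held 60776 and 50645 H3K18bu regions, and 50909 and 96332 of H4K12bu. The acetyl lists ran up to the limit of 300000 peaks set in the authors' pipeline, with 298592 and 298390 H3K18ac regions, and 299480 and 297745 of H4K12ac. The pileup is the height of the stack at a peak, here solved from the fold and the p. The lists do not say whether the stacked units are whole fragments or fragment ends. If they are ends, the same fragment can be listed as separate regions, and counts of regions would exceed counts of fragments. At Muc13, H3K18bu replicate 2 had regions of 73 bp with a pileup of 1 at chr16:33813095-33813167 and chr16:33813270-33813342. The part of such cases in the counts was not tested. It was 1 for 89.2% to 91.4% of the butyryl peaks, for 72.1% and 52.0% of the H3K18ac peaks, and for 52.8% and 12.8% of the H4K12ac peaks. Where a pileup of 1 makes a region, counting error is as big as the signal, and the region describes its own library only. The depth in reads is not given in the lists. The lowest local background, in units of pileup, was 0.0146 in every butyryl library and 0.0608 to 0.147 in the acetyl libraries.

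Every one of the 10 genes had at least 1 region of each of the 4 marks in at least 1 replicate. The same held for 73.2% of protein-coding genes with H3K18bu, 82.4% with H4K12bu, 90.7% with H3K18ac and 93.3% with H4K12ac. Of the 80 combinations of gene and library, 6 held no region. These were Clca1, Fcgbp and Zg16 in H3K18bu replicate 2, Fcgbp and Atoh1 in H4K12bu replicate 1, and Zg16 in H4K12ac replicate 1. In these libraries 7, 8 and 9 members had a region, against 58.0%, 66.5% and 86.8% of protein-coding genes. Together the windows, 451 kb in all, held 32 and 29 regions of H3K18bu, 15 and 39 of H4K12bu, 88 and 63 of H3K18ac, and 34 and 59 of H4K12ac. Of the 115 butyryl regions, 16 lay within 1 kb of a gene end, 52 inside the gene further from its ends and 47 in the flanks. The 244 acetyl regions lay in the same places in similar shares, with 28 at gene ends, 105 inside and 111 in the flanks. A pileup of 1 was the value of 105 butyryl regions (91.3%) and 46 acetyl regions (18.9%), and 2 butyryl and 27 acetyl regions had q below 0.05.

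**Figure D1:**
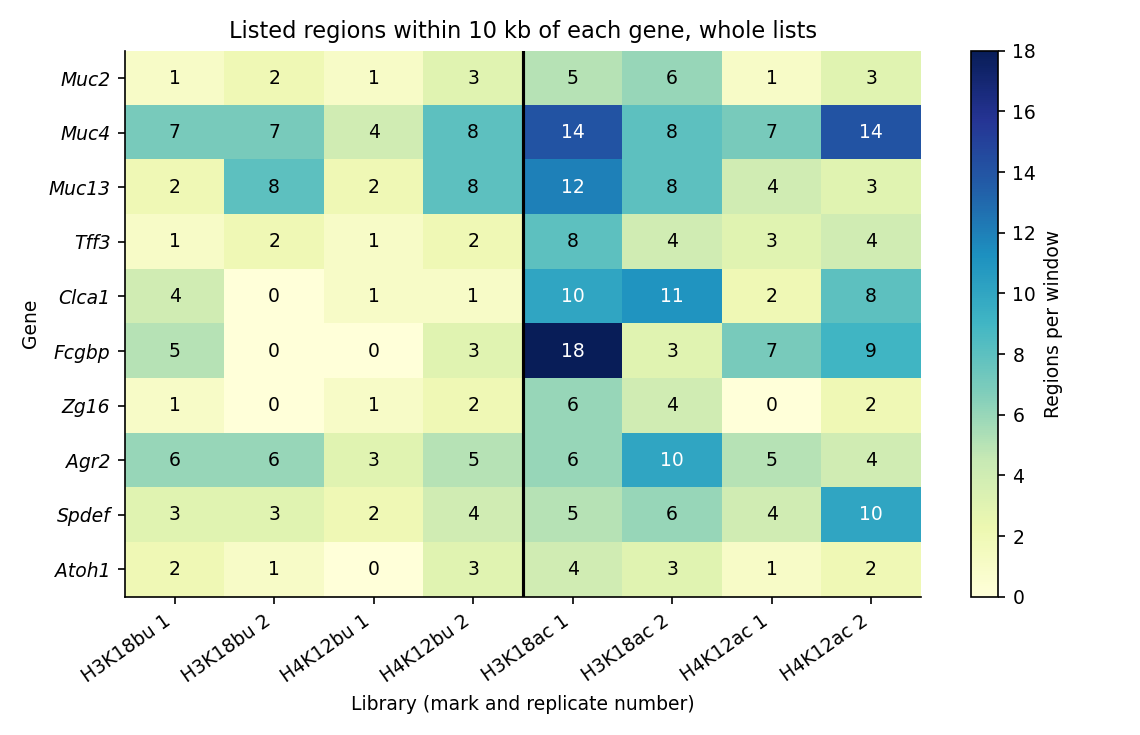
Number of listed regions within 10 kb of each gene (vertical axis) in each library (horizontal axis, mark and replicate number), with colour from 0 to 18 regions per window and the butyryl libraries left of the black line. Muc4 held 4 to 8 butyryl and 7 to 14 acetyl regions, and the highest count was 18 for Fcgbp in H3K18ac replicate 1.

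Among the mucins, Muc2 (chr7:141690340-141754691) held few regions for its length, with 1 and 2 of H3K18bu, 1 and 3 of H4K12bu, 5 and 6 of H3K18ac, and 1 and 3 of H4K12ac. Its butyryl and acetyl libraries overlapped. H4K12bu was the 1 mark with a shared region, at chr7:141687633-141687878, which begins before the gene and ends 2461 bp short of its start. The pileup there was 1 in each replicate, and the same stretch held a region of H3K18ac replicate 2 with a pileup of 3 and none of H4K12ac. The 1 library whose strongest Muc2 region had q below 0.05 was H4K12ac replicate 2, past the end of the gene at chr7:141759285-141759507, where the pileup was 3, the fold 3.40 and q below 0.05.

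Muc4, a large transmembrane mucin (chr16:32735886-32782391), held 7 and 7 H3K18bu regions and 4 and 8 H4K12bu regions. This was the highest count of the 10 genes in the first replicate of both butyryl marks, tied with the 8 of Muc13 in H4K12bu replicate 2, and exceeded by the 8 of Muc13 in H3K18bu replicate 2. The acetyl libraries held 14, 8, 7 and 14, so that the 2 groups overlapped. The Muc4 window also covers part of the mucin gene Muc20, which overlaps the end of Muc4, and the long noncoding RNA Gm34825 within the gene. Muc4 was the only member with a shared region of both butyryl marks, which 13.9% of protein-coding genes had. The 2 butyryl regions of all member windows with q below 0.05 both lay in Muc4, near its start. One was in H3K18bu replicate 1 at chr16:32742853-32743104, where the pileup was 3 and the fold 3.73. The other was in H4K12bu replicate 2 at chr16:32740392-32740659, where the pileup was 3 and the fold 3.68. Among protein-coding genes, 5.42% had an H3K18bu and 13.4% an H4K12bu region with q below 0.05 in at least 1 replicate. For the acetyl marks the counts were 6 of the 10 members with H3K18ac and 6 with H4K12ac, against 54.9% and 73.8%.

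The stretch at chr16:32742834-32743564, which begins 6948 bp into Muc4, held a region of all 4 butyryl libraries, with pileups of 3 and 1 in the H3K18bu replicates and again 3 and 1 in those of H4K12bu. It was the 1 stretch of this kind among the 253 stretches of the member windows, and 10.4% of protein-coding genes had one. The H3K18bu regions of the replicates did not overlap each other there, nor did those of H4K12bu, so that no butyryl mark had a shared region at this place. H3K18ac replicate 1 had regions in the same stretch with a highest pileup of 5, and the other 3 acetyl libraries had none. The second Muc4 stretch, at chr16:32740392-32740659, held the shared H4K12bu region with pileups of 1 and 3, a region of H3K18bu replicate 2 and a region of H3K18ac replicate 1 with a pileup of 5. A shared H3K18ac region lay next to it at chr16:32740794-32741102, with pileups of 4 and 5. The shared H3K18bu region of Muc4 was elsewhere, at chr16:32727019-32727660, 8225 bp before the gene and over the pseudogene Gm9556. Its replicates had pileups of 2 and 1 and had 55 bp in common.

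**Figure D2:**
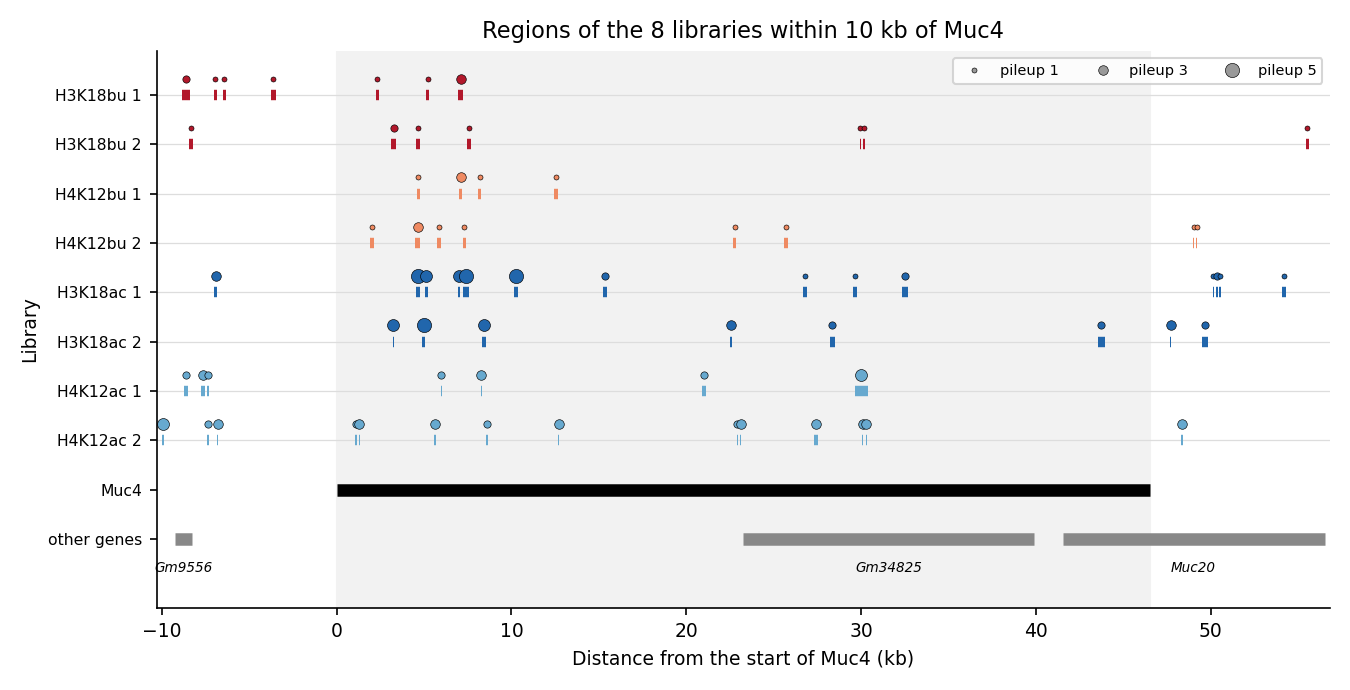
Regions of the 8 libraries (rows) by distance from the start of Muc4 in kb (horizontal axis); bars mark regions to scale, circles above them grow with the pileup, and black and grey bars mark Muc4 and the other genes of the window. Regions of all 4 butyryl libraries gather in the first part of the gene, around the stretch that begins 6948 bp from its start.

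Muc13, a transmembrane mucin of the epithelial surface (chr16:33794037-33819929), differed between replicates of the butyryl marks. It held 2 and 8 H3K18bu regions and 2 and 8 H4K12bu regions, against 12 and 8 of H3K18ac and 4 and 3 of H4K12ac. Neither butyryl mark had a shared region. H3K18ac had 4 shared regions, the highest number of any mark at the 10 genes. The first lay before the gene, at chr16:33785103-33785384, with pileups of 5 and 7, folds of 3.95 and 4.25, and q below 0.05 in both replicates. It was the 1 shared region with q below 0.05 in both replicates at the member genes, and 16.5% of protein-coding genes had such a region of H3K18ac. The next lay at chr16:33786990-33787193 with pileups of 4 and 7. The third, at chr16:33794098-33794404, covered part of the second promoter printed above, with pileups of 5 and 4. The fourth, at chr16:33795944-33796241, had pileups of 3 and 4. The first of these places, as the stretch chr16:33785099-33785445, also held regions of H3K18bu replicate 2, H4K12bu replicate 1 and H4K12ac replicate 1 with pileups of 2, 1 and 2. H4K12ac had 1 shared region, at chr16:33796669-33796945 inside the gene. The long noncoding RNA Gm15658 overlaps the start of Muc13 and covers the other 3 of the 4 H3K18ac places, the fourth in part.

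Among the secreted products, Tff3, a trefoil peptide of the mucus that aids repair of the epithelium (chr17:31125306-31129611), held 1 and 2 H3K18bu and 1 and 2 H4K12bu regions. It held 8 and 4 H3K18ac regions and 3 and 4 H4K12ac regions. In the whole lists Tff3 was the 1 member whose butyryl libraries (1.5 ± 0.577, SD, n = 4) all lay below its acetyl libraries (4.75 ± 2.22, SD, n = 4), with p = 0.0286 in a two-sided exact permutation test and 0.115 after adjustment over all windows. This is the smallest p that 4 against 4 libraries can give, and 24.9% of all windows had butyryl below acetyl without overlap in these lists of unequal length, with 0.0212% the other way. The stretch chr17:31134896-31135419, which begins 5284 bp from the end of Tff3 with the higher coordinate, held a region of all 4 acetyl libraries and of no butyryl library. Its pileups in the replicates were 3 and 4 with H3K18ac, then 2 and 3 with H4K12ac. It was the 1 stretch of this kind in the member windows, and 7.84% of protein-coding genes had one. A second shared H3K18ac region covered that same gene end, at chr17:31129410-31129630, with pileups of 2 and 3.

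Clca1, a protease of the mucus (chr3:145004537-145032776), held 4 and 0 H3K18bu, 1 and 1 H4K12bu, 10 and 11 H3K18ac, and 2 and 8 H4K12ac regions. Every butyryl region of Clca1 had a pileup of 1. Its 1 shared region was of H4K12ac, at chr3:145030016-145030287 inside the gene, with a pileup of 2 in each replicate. The 10 and 11 H3K18ac regions of the replicates shared no place.

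Fcgbp, an abundant partner of Muc2 in mucus (chr7:28071236-28120864), held 5 and 0 H3K18bu, 0 and 3 H4K12bu, 18 and 3 H3K18ac, and 7 and 9 H4K12ac regions. Each butyryl mark thus appeared in 1 replicate only, and each of those regions had a pileup of 1. At the start of the gene H4K12ac had a shared region, chr7:28070732-28071397, with pileups of 2 and 3, over the promoter printed above. H3K18bu replicate 1 and H3K18ac replicate 1 had regions in the same stretch, with pileups of 1 and 2. The pseudogene Gm21925 overlaps part of Fcgbp, and a region in that overlap lies at both. Placement of reads between similar sequences was not tested.

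Zg16, a mucus lectin that binds bacteria (chr7:127050156-127052675), had no region shared by the replicates of any mark. It held 1 and 0 H3K18bu, 1 and 2 H4K12bu, 6 and 4 H3K18ac, and 0 and 2 H4K12ac regions. In H3K18ac replicate 1 the strongest lay over the gene end with the higher coordinate, at chr7:127052659-127052969, where the pileup was 3, the fold 3.68 and q below 0.05. Replicate 2 of H3K18ac and replicate 2 of H4K12ac had a region with q below 0.05 elsewhere, in the stretch chr7:127061680-127062426, each with a pileup of 3.

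Agr2, a protein disulfide isomerase of the endoplasmic reticulum needed to fold Muc2 (chr12:35992925-36004081), held 6 and 6 H3K18bu, 3 and 5 H4K12bu, 6 and 10 H3K18ac, and 5 and 4 H4K12ac regions. The 6 H3K18bu regions of each replicate fell in different places. H4K12bu had a shared region at chr12:35983289-35983622, 9302 bp before the gene, with pileups of 1 and 2, and a shared H3K18ac region lay within it at chr12:35983371-35983485, with pileups of 3 and 5. H3K18bu replicate 2 also had a region in that stretch, which made it 1 of 4 stretches in the member windows with regions of 5 libraries. The others lay at Muc4, Muc13 and Atoh1, so that 4 of the 10 genes had such a stretch, against 42.4% of protein-coding genes. The H4K12ac libraries had none there.

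Of the transcription factors, Spdef (chr17:27714446-27731003) had no shared region of any mark. It held 3 and 3 H3K18bu, 2 and 4 H4K12bu, 5 and 6 H3K18ac, and 4 and 10 H4K12ac regions, and all of its butyryl regions had a pileup of 1. The strongest H4K12ac regions of Spdef had a pileup of 4 in each replicate, but at different places, chr17:27732906-27733074 in replicate 1 and chr17:27707873-27708503, over the neighbouring gene Pacsin1, in replicate 2.

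Atoh1 (chr6:64729125-64731245), a gene of small size, held 2 and 1 H3K18bu, 0 and 3 H4K12bu, 4 and 3 H3K18ac, and 1 and 2 H4K12ac regions. It was the 1 member with a shared butyryl region at its start. This H3K18bu region, chr6:64728907-64729601, had pileups of 1 and 2, and its replicates had in common the 60 bases shown in capitals above. It was also the 1 shared butyryl region of the member genes that overlapped an acetyl region of the same residue, the shared H3K18ac region at chr6:64729332-64729816 with pileups of 3 and 2. The stretch that joins them held regions of H4K12bu replicate 2 with pileups of 1 and none of H4K12ac. H4K12ac had its own shared region before the gene, at chr6:64727690-64728064, with a pileup of 2 in each replicate and over the noncoding RNA Gm35851.

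**Figure D3:**
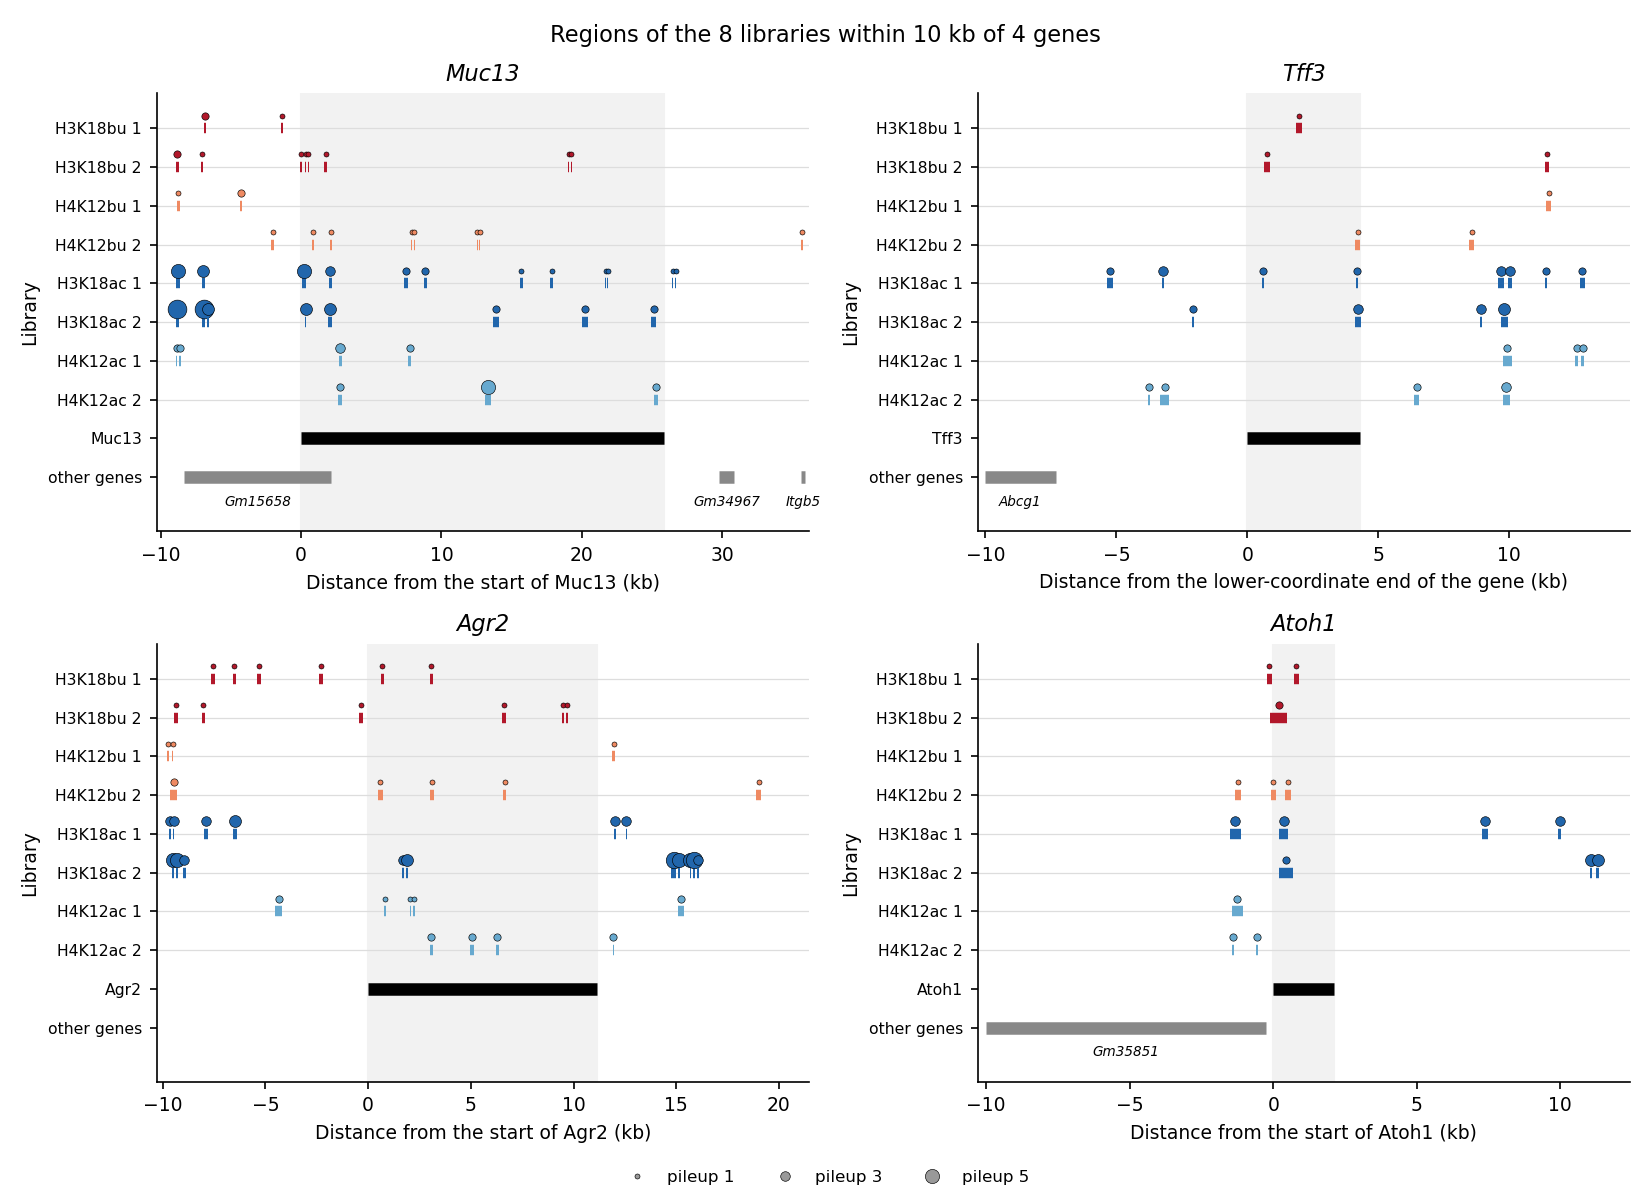
Regions of the 8 libraries (rows) around Muc13, Tff3, Agr2 and Atoh1 by distance in kb from the gene start, or for Tff3 from the gene end with the lower coordinate; bars mark regions to scale, circles grow with the pileup, black bars mark the gene and grey bars other genes. The stretch beyond Tff3 holds all 4 acetyl and no butyryl library, and the start of Atoh1 holds both H3K18bu and both H3K18ac libraries.

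Shared regions were the measure with a replicate check. H3K18bu had a shared region at 2 of the 10 genes (Muc4 and Atoh1), against 20.5% of protein-coding genes. H4K12bu had one at 3 (Muc2, Muc4 and Agr2), against 33.7%. H3K18ac had one at 5 (Muc4, Muc13, Tff3, Agr2 and Atoh1), against 58.7%, and H4K12ac at 6 (Muc4, Muc13, Tff3, Clca1, Fcgbp and Atoh1), against 61.4%. All 4 counts were near the share of protein-coding genes. When every list was shortened to its 50645 strongest regions, the counts were 2 with H3K18bu, 3 with H4K12bu, 2 with H3K18ac and 0 with H4K12ac, against 18.3%, 21.9%, 27% and 24.2%. With a pileup of at least 2, they were 0, 0, 5 and 6 in the same order, against 3.84%, 8.33%, 45% and 58.2%. With q below 0.05 in both replicates, the counts were 0, 0, 1 and 0, against 0.498%, 1.7%, 16.5% and 16.8%. Taking the marks of an acyl group together, 4 members had a shared region of either butyryl mark, against 40.3%, and 7 of either acetyl mark, against 73.6%. Without the flanks, the counts were 1 with H3K18bu, 1 with H4K12bu, 4 with H3K18ac and 4 with H4K12ac, against 13.9%, 23.2%, 42.3% and 45.8%. With flanks of 5 kb they were 1, 2, 4 and 5 in the same order, against 17.7%, 29.7%, 52.2% and 55.1%. Zg16 and Spdef were the 2 members without a shared region of any mark.

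The 5 shared butyryl regions of these genes were compared with the acetyl regions of their own and of the other residue. Of the 2 H3K18bu regions 1 overlapped a listed H3K18ac region, against 76.1% of all 8319 shared H3K18bu regions in the genome. Of the 3 H4K12bu regions 0 overlapped H4K12ac, against 69.9% of all 9920. With the other residue the count was 4 of the 5, since all 3 H4K12bu regions overlapped H3K18ac and the H3K18bu region before Muc4 overlapped H4K12ac. Genome-wide, 64.4% of the shared H3K18bu regions overlapped H4K12ac and 72.2% of the shared H4K12bu regions overlapped H3K18ac. The numbers at these genes are too small to set against the genome, and no test was made. In the separate libraries, 28.1% and 48.3% of the H3K18bu regions in the member windows overlapped H3K18ac, against 38.4% and 40.0% genome-wide, and 33.3% and 15.4% of the H4K12bu regions overlapped H4K12ac, against 35.9% and 33.0%.

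The number of butyryl regions per length of window, without the replicate check, was also compared with that of other genes. The windows held 0.709 and 0.643 H3K18bu regions per 10 kb, against 0.350 and 0.291 over all protein-coding windows. H4K12bu had 0.332 and 0.864, against 0.327 and 0.620. H3K18ac had 1.95 and 1.40, against 1.44 and 1.43, and H4K12ac had 0.753 and 1.31, against 1.33 and 1.54. In these sums the members lay above protein-coding genes in both replicates of H3K18bu and of H4K12bu, with the first H4K12bu replicate almost level, and below them in both replicates of H4K12ac. The median gene of the members lay above the median protein-coding gene for 3 marks. It held 0.769 and 0.636 H3K18bu regions per 10 kb against 0.253 and 0.178, 0.424 and 0.991 of H4K12bu against 0.276 and 0.547, and 2.09 and 1.64 of H3K18ac against 1.55 and 1.08. With H4K12ac the median was 0.938 and 1.29 against 1.12 and 1.53. These are descriptions of a chosen list and were not tested.

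Marker lists of cell types were measured in the same way. The 9 genes of gut epithelium (Epcam, Cdh1, Krt8, Krt18, Krt19, Cdx1, Cdx2, Vil1 and Hnf4a) held 1.93 and 2.18 H3K18bu regions per 10 kb and 1.09 and 2.13 of H4K12bu. The 6 genes of absorptive colonocytes, the other main cell of the colon surface, held 0.865 and 0.701 of H3K18bu and 0.783 and 0.948 of H4K12bu. The 6 smooth muscle genes held 0.178 and 0.0712 of H3K18bu and 0.569 and 0.747 of H4K12bu. The 6 immune genes held 0.149 and 0.112, and 0.149 and 0.373. The 6 neuron and liver genes, of which Rbfox3 and Syt1 are also used by the neurons of the gut wall, held 0.110 and 0.128, and 0.146 and 0.320. By these sums, in all 4 butyryl libraries the goblet and mucus genes lay below the gut epithelium and the absorptive colonocyte genes. They lay above the immune and the neuron and liver genes. Smooth muscle genes lay below them in both H3K18bu libraries and in H4K12bu replicate 2, and above them in H4K12bu replicate 1. Rbfox3 (442 kb) and Syt1 (533 kb) made up most of the 1092 kb of neuron and liver windows. By median regions per gene, neuron and liver genes stood at 2 and the goblet and mucus genes at 1 in H4K12bu replicate 1. In H4K12bu replicate 2 colonocyte and smooth muscle genes were level with the goblet and mucus genes at 3. In the other libraries the medians of these lists kept the order of the sums.

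The acetyl lists did not give this order. The neuron and liver genes held 1.42 and 2.97 H3K18ac regions per 10 kb and 3.35 and 0.888 of H4K12ac, above the goblet and mucus genes in H3K18ac replicate 2 and H4K12ac replicate 1. Most of those regions lay in Rbfox3 and Syt1, long genes of neurons, with 207 in Rbfox3 in H3K18ac replicate 2 and 187 in Syt1 in H4K12ac replicate 1. Replicates of a mark differed widely there, with 95 and 207 regions in Rbfox3 for H3K18ac and 173 and 49 for H4K12ac, and regions shared by both replicates numbered 18 and 10. The part of such differences between libraries in the counts at the goblet and mucus genes was not tested. The immune genes had the largest count in Ptprc, with 79 regions in H4K12ac replicate 2.

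The same lists were counted by shared regions, beside 20.5%, 33.7%, 58.7% and 61.4% of protein-coding genes with H3K18bu, H4K12bu, H3K18ac and H4K12ac. The gut epithelium genes, defining markers of the labelled tissue, had a shared region at 9 of 9 genes with H3K18bu, 7 of 9 with H4K12bu, and 9 of 9 with each acetyl mark. Smooth muscle genes had 0, 3, 4 and 5 of 6 (in the order H3K18bu, H4K12bu, H3K18ac, H4K12ac), immune genes 0, 0, 3 and 3 of 6, and neuron and liver genes 1, 2, 3 and 3 of 6. The absorptive colonocyte genes had 3, 1, 5 and 3 of 6. Smooth muscle genes thus stood above the share of protein-coding genes with H4K12bu (50%) and H4K12ac (83.3%), where absorptive colonocyte genes stood below it (16.7% and 50%), and no test was made. One colonocyte gene, Slc26a3, a chloride and bicarbonate exchanger, had a shared H3K18bu region with q below 0.05 in both replicates, at chr12:31458480-31458905 inside the gene, with pileups of 4 and 3. A smooth muscle gene, Actg2, which encodes an actin of gut smooth muscle, had a shared H4K12bu region with q below 0.05 in both replicates 5691 bp outside the gene, at chr6:83506627-83507217 over the neighbouring gene Dguok, with pileups of 4 and 6.

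A wider list of 38 other goblet and mucus genes had a shared region at 16 genes for H3K18bu, 13 for H4K12bu, 28 for H3K18ac and 22 for H4K12ac. Their shares, 42.1%, 34.2%, 73.7% and 57.9%, stand beside 20%, 30%, 50% and 60% of the 10 genes. Within it, 7 other mucins had 1, 0, 4 and 3 in the same order of marks. The H3K18bu case was Muc3, and Muc1 and Muc20 had no shared region of any mark. The 9 other secreted products had 2, 1, 6 and 4, with Guca2a, the precursor of guanylin, holding 4 shared H3K18bu regions and 1 of H4K12bu. Tff2, the neighbour of Tff3 in the trefoil cluster, had no shared butyryl region, 2 of H3K18ac and 1 of H4K12ac. The 8 other transcription factors had 4, 3, 6 and 5, and 9, 9, 12 and 10 of the 14 genes of glycosylation and secretion had one. Creb3l1, a transcription factor of secretory cells, had a shared H4K12bu region with q below 0.05 in both replicates, at chr2:91984526-91984796 inside the gene, with pileups of 4 and 3. It was the 1 gene of the wider list with such a butyryl region.

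**Figure D4:**
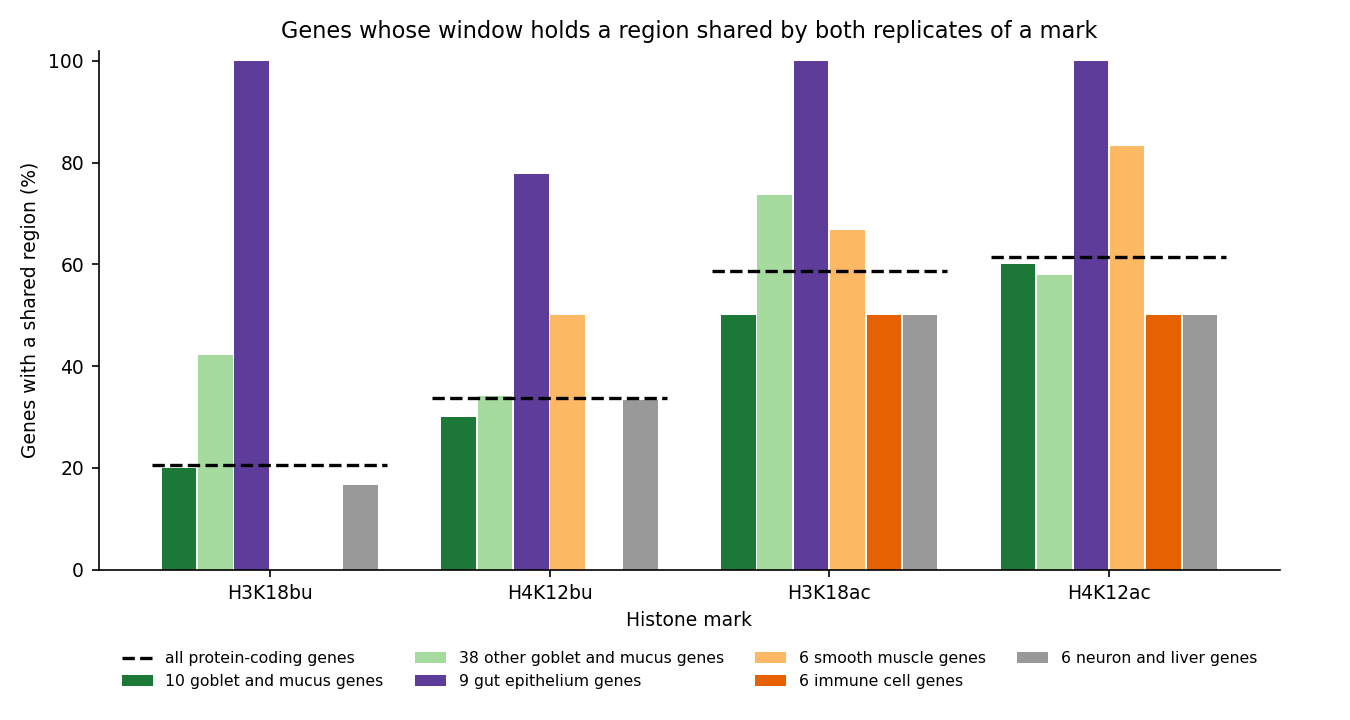
Share of genes (vertical axis, %) whose window of 10 kb on either side holds a shared region of a mark (horizontal axis), with a bar for each gene list and dashed lines for all protein-coding genes. The 10 goblet and mucus genes stand near the dashed lines at 20%, 30%, 50% and 60%, and the gut epithelium genes stand at 77.8% or above for every mark.

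To compare butyryl with acetyl libraries on lists of the same length, the 50645 strongest regions of each library were counted, and the 4 butyryl were set against the 4 acetyl libraries. Ties in −log10 p were broken at random. The cut fell at 3.03 in H3K18bu replicate 1 and 3.98 in H4K12bu replicate 2, values shared by regions with a pileup of 1. Among such regions the −log10 p ranks only the local background. How far the counts and p-values below depend on the random order was not tested. In these lists the windows of the 10 genes held 21, 29, 15 and 8 butyryl regions and 23, 20, 10 and 7 acetyl regions. In the shortened lists, 82.0% to 91.4% of the butyryl regions and 0% of the acetyl regions had a pileup of 1. The comparison thus sets mostly regions with a pileup of 1 against regions with a higher pileup. No member had butyryl and acetyl libraries that did not overlap. Of all 42729 windows tested, 0.377% had butyryl lower and 0.456% butyryl higher without overlap, and 0 passed an adjusted p of 0.05 in the two-sided exact permutation test, with 356 at an unadjusted p below it. The smallest p that 4 against 4 libraries allow is 0.0286, and 2 against 2 libraries, for a residue by itself, cannot go below 0.333. The butyryl mean was higher at 6 members, lower at 3 and equal at Clca1, beside 44.7% of all windows higher and 42.6% lower. With the whole lists of unequal length it was lower at all 10 members and in 95.1% of all windows. By covered length in the equal lists it was lower at 7 members and in 63.9% of all windows.

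The smallest p was at Muc2, where the butyryl libraries held 1, 2, 1 and 1 regions (1.25 ± 0.50, SD, n = 4) and the acetyl libraries 0, 0, 0 and 1 (0.25 ± 0.50, SD, n = 4), with p = 0.114 in the exact permutation test. The groups met at 1 region. Muc4 held 2, 7, 4 and 3 butyryl regions (4.00 ± 2.16, SD, n = 4) and 4, 2, 3 and 2 acetyl regions (2.75 ± 0.957, SD, n = 4), with p = 0.543 in the exact permutation test. Atoh1 was the member with the largest mean difference towards acetyl, 0.75 ± 0.957 against 1.75 ± 1.71 (SD, n = 4 each, exact permutation p = 0.543). Some counts leaned on 1 library. At Fcgbp the butyryl libraries held 5, 0, 0 and 1 regions, at Muc13 2, 8, 2 and 0, and at Agr2 1, 6, 3 and 2, and the acetyl libraries held 3, 7, 0 and 0 at Agr2. The high butyryl counts at Muc13 and Agr2 were those of H3K18bu replicate 2, whose list was kept whole. In the whole lists the butyryl libraries held 2, 8, 2 and 8 at Muc13, and 6, 6, 3 and 5 at Agr2. These p-values cover the spread between libraries, and a p above the threshold does not show that the groups were alike. The whole lists of unequal length were also taken without regions of a pileup below 2, a filter that leaves out most butyryl regions. Then 7 members had fewer butyryl regions without overlap, as did 43.6% of all windows, and 0 windows had more. The butyryl mean was lower in 99.9% of all windows. In the whole lists without the filter it was already lower in 95.1% of all windows, and the count does not set these genes apart. No window passed an adjusted p of 0.05 in the exact permutation test.

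**Figure D5:**
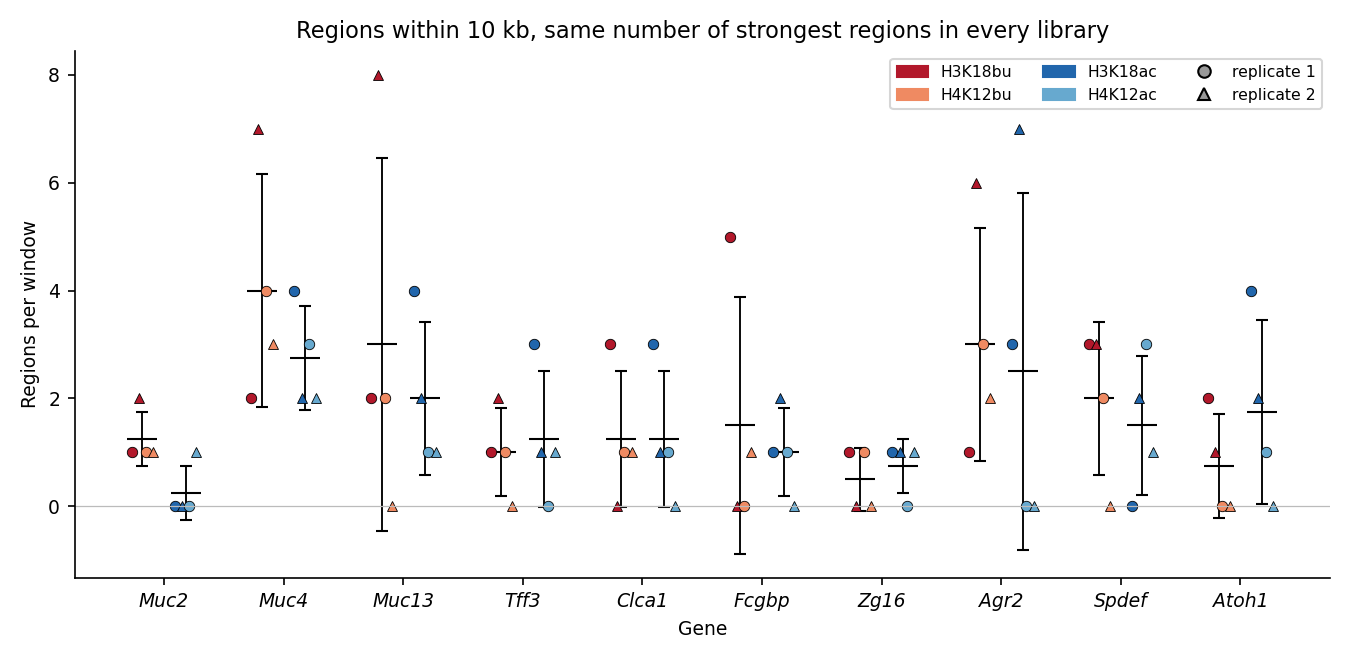
Regions per window (vertical axis) for each gene (horizontal axis) among the same number of strongest regions of every library; points are libraries, coloured by mark and shaped by replicate number, and lines give the mean and SD of 4 butyryl (left) and 4 acetyl (right) libraries. The 2 groups meet or overlap at every gene. H3K18bu replicate 2 stands above all other libraries at Muc2, Muc4 and Muc13, and above the other butyryl libraries at Tff3 and Agr2. Its list was the shortest and was kept whole, while the others were cut to its length. In the whole lists H4K12bu replicate 2 held at least as many regions at Muc2, Muc4, Muc13 and Tff3, and H3K18bu replicate 1 as many at Agr2.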

How the data were processed

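CUT&Tag of mouse large intestine was analysed in 8 libraries; human cell libraries of the series were not used here. Per the labels' processing notes, reads were handled with bcl2fastq 2.17.1, cutadapt 1.9.1, Bowtie2 2.3.1 and MACS2 2.1.0, with mm10 as the mouse build. The authors made a separate peak list for every library, with replicates unpooled and no control, at a p threshold of 0.01 with a limit of 300000 peaks, and removed known artifact regions. The deposited values are a fold ratio over local background and the −log10 p and −log10 q of each peak. They hold no counts, so no count model was fitted, and p-values and folds rank peaks within a library only.

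Pileups were solved from the deposited fold and −log10 p of every peak, within 0.01 of the −log10 p. The solver and the permutation test were tested on simulated data. Overlapping peaks of a library were merged to regions; overlap meant at least 1 bp. Regions of both replicates of a mark were joined, and a joined stretch with a region of each was called shared. A stretch is the same over all 8 libraries. Genes came from RefSeq GRCm38.p6, the same build as mm10. As a check, 17.2% of the acetyl regions that passed q 0.05 were no further than 1 kb from gene ends, and 9.37% when moved by 10 kb.

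Regions per window were compared by two-sided exact permutation over 70 assignments of 4 against 4 libraries, with Benjamini-Hochberg adjustment over all windows with a region. The labels do not tie libraries to animals, so that p-values measure the spread between libraries, which may be technical. Whether replicate numbers pair the samples is not known, as given in the closing section. The 10 genes and all lists were chosen with earlier results of these data known. All 10 are named; genes of other lists are named where they had a shared butyryl region with q below 0.05 in both replicates, and the rest as examples chosen after their values were seen. Alternatives were other windows (the gene alone, 5 kb), q below 0.05, a pileup of at least 2, 50% coverage, whole lists, covered length, strength by fold, and leaving out each replicate. Python 3.11.15, numpy 2.4.6, pandas 2.3.3, scipy 1.17.1 and bedtools 2.31.1 were used.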

Additional observations from a re-analysis of the deposited data

How the results depend on the processing

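The number of members with a shared region moved with the settings named here. For H3K18bu it was 2 as reported, 1 for the gene alone, 1 with a window of 5 kb (17.7% of protein-coding genes), 0 with q below 0.05, 0 with a pileup of at least 2, and 7 to 10 when either replicate was left out, which turns the measure into regions of 1 library (58.0% and 63.3% of protein-coding genes). For H4K12bu it was 3, then 1 for the gene alone, 0 with q below 0.05, 0 with a pileup of at least 2, and 8 to 10 without a replicate (66.5% and 78.1%). For H3K18ac it was 5, then 1 with q below 0.05, 2 with the same number of strongest regions, and 10 without either replicate (88.8% and 81.5%). For H4K12ac it was 6, then 0 with q below 0.05, 0 with the same number of strongest regions, and 9 to 10 without a replicate (86.8% and 90.8%). The H3K18bu regions over acetyl regions, 1 of 2 as reported, were 0 of 2 with 50% coverage, and 0 of 0 with q below 0.05 or a pileup of at least 2. Leaving replicate 1 or 2 out of the butyryl and the acetyl lists alike gave 7 of 29 and 6 of 32. Against both acetyl replicates the same regions gave 14 of 29 and 9 of 32 (40.0% and 38.4% genome-wide). Those of H4K12bu, 0 of 3 as reported, were 4 of 39 and 3 of 15 with a replicate left out of both lists. Against both acetyl replicates they were 6 of 39 and 5 of 15 (33.0% and 35.9% genome-wide).

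Members whose butyryl and acetyl libraries did not overlap numbered 0 with lists of the same length (0.833% of all windows), 1 with whole lists (24.9%), 7 with whole lists and a pileup of at least 2 (43.6%), and 2 and 1 without replicate 1 and 2 (13.6% and 16.5%). Butyryl minus acetyl regions in lists of the same length, in whole lists, and in whole lists with a pileup of at least 2 were 1.25, -4.25 and -8.25 for Muc4, 1.00, -1.75 and -4.50 for Muc13, 0.50, -7.25 and -5.25 for Fcgbp, 0.50, -1.25 and -5.25 for Agr2, and 0.50, -3.25 and -5.75 for Spdef. The last setting leaves out most butyryl regions. With it the butyryl mean was lower in 99.9% of all windows, against 95.1% in the whole lists. The whole lists alone turned the sign at all 5 genes. The strongest region by fold was the same in 73 of 74 cases. With the replicate number as a block, 0 windows passed an adjusted p of 0.05 and the smallest p possible was 0.0556. Differences between replicates 1 and 2 were correlated across protein-coding windows. For pairs of a butyryl and an acetyl mark, the correlation was -0.032 to 0.025 in the whole lists. In the lists of the same length it was -0.091 to 0.043. With a pileup of 1 at most butyryl regions, these values cannot decide whether the numbers pair the samples. Between H3K18ac and H4K12ac the correlation was -0.514, so that in the whole lists H3K18ac replicate 2 went with H4K12ac replicate 1 and the 4 acetyl libraries may not be independent; in the lists of the same length it was -0.0052. Between H3K18bu and H4K12bu these values were -0.011 and -0.172. The pileup of 1 at most butyryl regions, the unknown animals and diet, and 2 replicates per mark limit these values.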
